A study of Mus musculus with 14 samples.

Results

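The 10 genes described here carry iron into cells, hold it, pass it out or sense it: Trf, Tfrc, Steap3, Slc11a2, Fth1, Hmox1, Slc40a1, Cp, Aco1 and Ireb2. They were chosen by name, and each matched 1 of the 22007 gene IDs in the deposited expression table. All 10 were among the 12251 genes tested. RNA was sequenced from kidney cortex of 14 mice on a C57BL/6 background: 4 TRACK-VAD, 4 TRACK, 3 WT-VAD and 3 WT libraries. TRACK mice carry the transgene GGT-HIF1A_M3, an always active form of HIF1A, the subunit of the hypoxia-inducible transcription factor that oxygen normally destabilises, under the gamma-glutamyl transferase promoter, which is active in the proximal tubule; WT mice carry no transgene. The VAD groups ate a diet deficient in vitamin A and the other groups ate regular chow, starting 2 weeks after weaning; kidneys were collected after 24 weeks, per the labels. Values were taken as FPKM, fragments scaled to transcript length and library size, divided by a scale factor per library, so that levels of different genes are compared per length.

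Transferrin carries iron in blood, and the transferrin receptor takes the loaded protein into the cell. In the endosome a reductase of the STEAP family reduces the iron and a divalent metal transporter moves it to the cytosol, where ferritin stores it. Ferroportin is the exporter, and ceruloplasmin, a copper ferroxidase, oxidises the iron that leaves so that transferrin can bind it. When iron is scarce, the iron regulatory proteins bind iron-responsive elements (IREs), short hairpins in the transcripts: an element in a 5' UTR blocks translation, and elements in a 3' UTR protect the transcript from decay. Transferrin, its receptor, ceruloplasmin and heme oxygenase 1 are known targets of hypoxia-inducible factors in cultured cells. The kidney filters transferrin-bound iron and recovers it in the proximal tubule.

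Ceruloplasmin (Cp) was about 4 times as high in the transgenic groups as in the wild type on either diet. The transferrin receptor (Tfrc) was higher in TRACK than in WT and also higher in WT-VAD than in WT, but it was not called between the genotypes on the deficient diet. Transferrin (Trf) was higher in TRACK than in WT, and Ireb2, an iron regulatory protein, was lower in TRACK-VAD than in WT-VAD. Steap3, a ferrireductase, was lower in the transgenic groups when both diets were averaged. Fth1, Hmox1, Slc40a1, Slc11a2 and Aco1 were called in none of the 6 comparisons made.

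The IRE hairpins are shown because they mark which of these transcripts the iron regulatory proteins are known to bind. The letters searched were a C, 5 bases, the loop CAGTGN with no G in its last place, and 5 bases that pair with the first 5, on the transcript strand. In each line the loop is in capitals and the DNA letter T stands for U. The sequences are from GENCODE transcripts on GRCm38, each a stretch of 29 bases.
Fth1, 5' UTR, chr19:9982732-9982760, plus strand: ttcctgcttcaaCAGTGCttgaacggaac
Slc40a1, 5' UTR, chr1:45925465-45925493, minus strand: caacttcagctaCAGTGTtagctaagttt
Tfrc, 3' UTR, chr16:32631219-32631247, plus strand: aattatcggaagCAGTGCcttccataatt
Tfrc, 3' UTR, chr16:32631598-32631626, plus strand: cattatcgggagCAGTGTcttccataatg
Tfrc, 3' UTR, chr16:32631663-32631691, plus strand: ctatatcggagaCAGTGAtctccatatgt
Tfrc, 3' UTR, chr16:32631710-32631738, plus strand: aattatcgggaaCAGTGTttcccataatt
The Fth1 transcript held 1 match and Slc40a1 held 1, both in the 5' UTR, and Tfrc held 4 in the 3' UTR. The search found a match in the 5' UTR of 0.11% of 20916 genes and in the 3' UTR of 0.475% of 21039 genes. Slc11a2, which is listed among IRE transcripts, had no match, which says only that these letters are not in its annotated UTRs.

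Before the results, 3 libraries need naming. TRACK-VAD libraries 1 and 2 stood apart on the second principal component of all tested genes, at 17.4 and 30.1, against -17.8 to 9.9 in the other 12 libraries; that component held 16.2% of the variance. In these 2 libraries the summed scaled FPKM of 6 tubular injury genes was 1850 and 8350, and it was 305 to 876 in the other 12. Spp1 alone made 1640 and 7860 of the sums in these 2 libraries. Havcr1, another of the 6, was raised more widely. It was at 142, 303, 18.1 and 46 in TRACK-VAD and 16.7 to 50.4 in TRACK. WT-VAD libraries had 1.05 to 2.9 of Havcr1 and WT libraries 0.703 to 0.846. TRACK library 4 had 61.4 scaled FPKM of Adipoq, a fat cell hormone, against 0 to 0.773 in the other libraries. Sequencing lane also differed: lane 6 held TRACK-VAD library 4 and the 3 WT-VAD libraries, and lane 5 held the rest. The mouse Hif1a gene was 23.9, 21.6, 30.5 and 27.6 scaled FPKM in TRACK-VAD, 23.8 to 31 in TRACK, 22.8 to 32.7 in WT-VAD mice and 27.7 to 31.2 in WT, and was called in no comparison; the level of the transgene itself was not analysed here. Markers of the tissue matched its label: the summed scaled FPKM of 10 proximal tubule genes was 3160 to 6240 in TRACK-VAD, 4920 to 5460 in TRACK, 6900 to 7840 in WT-VAD mice and 7260 to 8560 in WT. In bulk tissue, fewer cells of a type and less RNA per cell cannot be told apart.

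**Figure D1:**
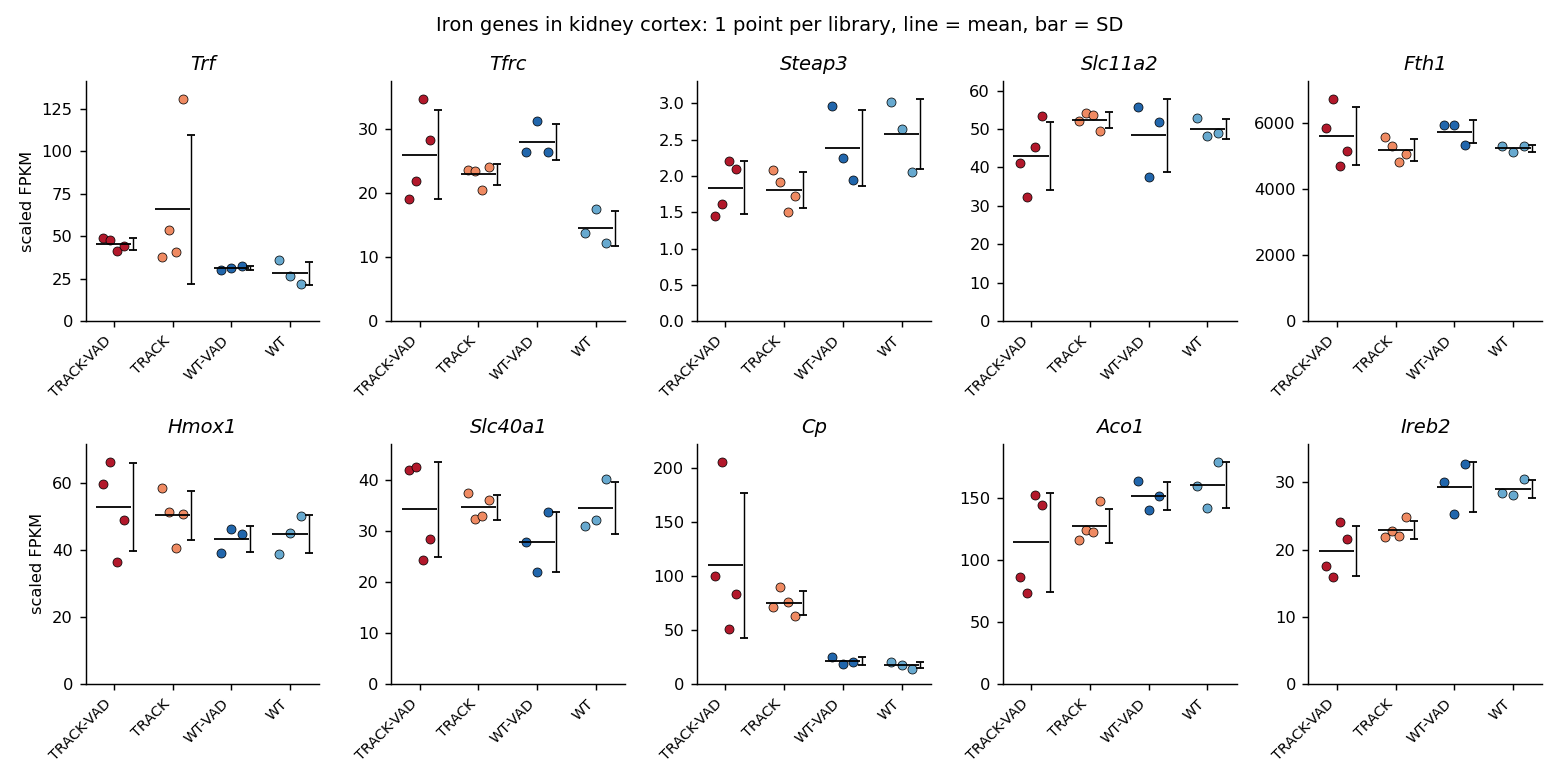
Scaled FPKM of the 10 iron genes (vertical axis, from 0) in each group (horizontal axis), 1 point per library, with the group mean as a line and its SD as a bar. All transgenic libraries lie above all wild-type libraries for Cp, and TRACK library 4 stands alone for Trf at 131 scaled FPKM.

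Genotype was compared first on chow. In TRACK against WT, limma called 3 of the 10 genes higher at an adjusted p at or under 0.05 and none lower. At an unadjusted p under 0.05, Steap3 and Ireb2, both lower, joined the 3 called genes. That threshold was passed by 32.8% of all tested genes. The authors' deposited table listed Steap3 as lower. Over all tested genes 17.3% were called in this comparison, 8.53% higher and 8.82% lower. The median log2 difference of the 10 was 0.04, against -0.001 over all tested genes. In TRACK-VAD against WT-VAD, 1 gene was higher and 1 was lower, against 22.3% of all tested genes called, 11.1% higher and 11.2% lower. The median log2 difference there was -0.09 for the 10 and -0.008 for all genes. The balance of calls over all genes depends on the scaling. Without it, 80.3% of the calls in TRACK against WT and 82.7% in TRACK-VAD against WT-VAD were higher, against 49.2% and 49.9% with it, and the median gene moved by 0.16 and 0.18 on the log2 scale. The differences below are relative to the median gene.

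The genes of uptake come first. Trf (ENSMUSG00000032554, chr9:103204001-103230444) encodes transferrin, which most of the body obtains from the liver. It was at 48.9, 48, 41.1 and 44.1 scaled FPKM in TRACK-VAD and at 38.1, 53.7, 41 and 131 in TRACK. The WT-VAD libraries had 30.4, 31.2 and 32.5, and the WT libraries had 35.8, 26.6 and 22. Every transgenic library lay above every wild-type library, and 1 TRACK library was far above the rest. The log2 difference was 1.04 ± 0.32 (SE) in TRACK against WT, 2.05-fold with an adjusted p of 0.039. It was 0.52 ± 0.32 in TRACK-VAD against WT-VAD, with an adjusted p of 0.251. Averaged over the diets the difference was 0.78 ± 0.22 (adjusted p = 0.0158), and with lane as a covariate it was 0.76 and not called (adjusted p = 0.102).

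The size of the Trf difference on chow moved with TRACK library 4. Without it the log2 difference was 0.65 ± 0.16, with an adjusted p of 0.0204. The call was lost without TRACK library 2 and without any 1 of the 3 WT libraries, where the adjusted p was 0.0548 to 0.154. It was also lost without a filter on low values (adjusted p = 0.0715) and with only those groups in the fit (adjusted p = 0.0765). In TRACK library 4 the summed scaled FPKM of 10 fat cell genes was 864, against 95.4 to 103 in the other TRACK libraries, and 7 of the 10 were highest there. These fat cell genes were chosen after the values were seen. TRACK-VAD libraries 1 and 2 had sums of 243 and 416, with Trf at 48.9 and 48 scaled FPKM. Fabp4 alone made 206 and 379 of these 2 sums. Adipoq was at 0.293 and 0.16 in these 2 libraries, against 61.4 in TRACK library 4. The part of fat cell RNA in the Trf result was not tested beyond leaving this library out. Of 12251 genes, those whose pattern over the 14 libraries was most like that of Trf were Tusc5, Pparg and Serpinf1, with root mean square differences of 0.26, 0.26 and 0.27 on the log2 scale, where Trf itself ranged over 2.52.

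**Figure D2:**
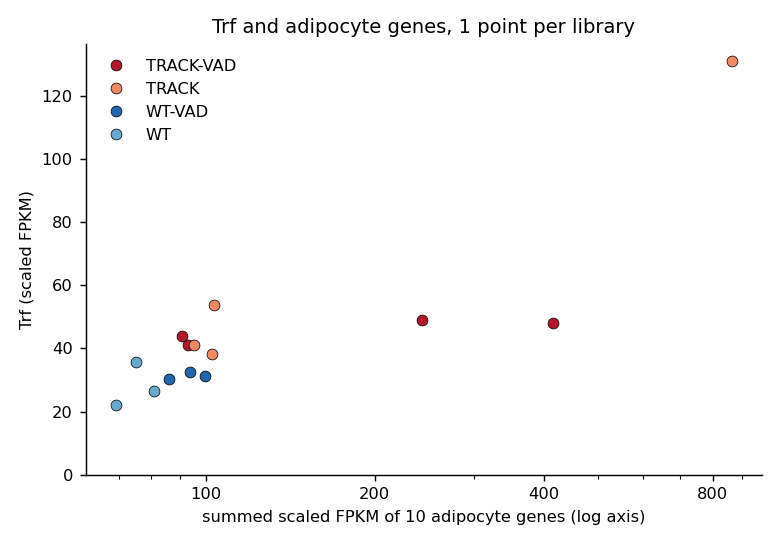
Scaled FPKM of Trf (vertical axis) against the summed scaled FPKM of 10 fat cell genes (horizontal axis, log scale), 1 point per library, coloured by group. TRACK library 4 lies at 864 and 131, and the other 13 libraries have Trf levels of 22 to 53.7. In TRACK-VAD libraries 1 and 2, Fabp4 alone makes 206 and 379 of the sums.

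The Trf values carry a further limit. In the annotation Trf shares 26307 bases on the same strand with Gm20425, a protein-coding locus at 4.49 to 6.77 scaled FPKM in the 14 libraries. In the authors' deposited tables the mean normalized count was 70.8 for Trf, and the ratio of mean FPKM to that count, 0.642, was at the 99.2 percentile of 11731 genes (median 0.0163). The level of Trf relative to the other genes is therefore uncertain. The authors' deposited table gave a log2 fold change of 0.68 for Trf in TRACK against WT, with an adjusted p of 0.069.

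Tfrc (ENSMUSG00000022797, chr16:32608920-32632794) encodes the transferrin receptor, and its 3' UTR holds the 4 matches to the IRE letters printed above. It was at 19.1, 21.9, 34.7 and 28.2 scaled FPKM in TRACK-VAD and at 23.6, 23.4, 20.5 and 24.1 in TRACK. WT-VAD libraries had 26.4, 31.2 and 26.4, and WT libraries had 13.8, 17.5 and 12.2. The WT group was lowest and overlapped none of the other groups, while TRACK-VAD libraries spread on both sides of the TRACK level. In TRACK against WT the gene differed by 0.63 ± 0.17 on the log2 scale (1.55-fold, adjusted p = 0.0226). In TRACK-VAD against WT-VAD it was -0.14 ± 0.17 (adjusted p = 0.591), with a 95% interval from -0.50 to 0.23.

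Tfrc was the 1 member of 10 called in WT-VAD against WT, a comparison in which 0.514% of all tested genes were called, 0.22% higher and 0.294% lower. The log2 difference was 0.91 ± 0.18, 1.88-fold, with an adjusted p of 0.0442. This comparison shares the WT libraries with that of TRACK against WT. The 2 genotype differences, -0.14 on the deficient diet and 0.63 on chow, differed by -0.77 ± 0.24 on the log2 scale. That difference had an unadjusted p of 0.00679 and an adjusted p of 0.454, so an interaction was not called. All WT-VAD libraries were in lane 6 and all WT libraries in lane 5, so diet and lane cannot be told apart between these groups. With lane as a covariate, which rests on TRACK-VAD library 4 alone, the log2 difference was 0.71 and the adjusted p 0.569.

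The Tfrc calls rested on few libraries. In TRACK against WT the call was lost without TRACK library 2 or 4 or WT library 1 or 3, with log2 differences from 0.52 to 0.77 over the 7 ways to leave out 1 library. In WT-VAD against WT it was lost in 5 of 6 such cases, all but that without WT library 2, with log2 differences from 0.80 to 1.05. The authors' deposited tables, whose headers list normalized counts, gave 0.61 with an adjusted p of 0.00136 in TRACK against WT and 0.93 with an adjusted p of 1.13e-05 in WT-VAD against WT. Without TRACK-VAD libraries 1 and 2, the 2 lowest of their group, the difference in TRACK-VAD against WT-VAD was 0.16 (adjusted p = 0.516) and the average over the diets, 0.25 (adjusted p = 0.124) with all libraries, became 0.40 (adjusted p = 0.00615). Without scaling that average was 0.44 (adjusted p = 0.00513). Markers of red cell precursors, which carry much transferrin receptor, summed to 294 to 1180 scaled FPKM in TRACK-VAD, 242 to 611 in TRACK, 320 to 412 in WT-VAD libraries and 415 to 499 in WT, and none of the 6 tested was called in any comparison. The genes most like Tfrc in pattern over the 14 libraries were Cldn19, Angptl1 and Col6a3, with root mean square differences of 0.22, 0.22 and 0.24 on the log2 scale, where Tfrc ranged over 1.44.

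Hypoxia-inducible factors are known to bind ACGTG or GCGTG, the core of the hypoxia response element. RefSeq windows of 250 bases before a start site on GRCm38.p6 were found for 6 of the 10 genes, and both motifs were searched on both strands. No window was found for Trf, Hmox1, Slc40a1 or Slc11a2, so these were not searched. Some of the 6 genes had more than 1 window. Matches may share bases, as ACGTG does with its reverse complement in CACGTG. Of 32851 such windows of all genes, 16.6% held ACGTG, 28.2% held GCGTG and 38.6% held either. GCGTG was found in windows of Fth1, Steap3 and Tfrc. ACGTG was found in a Tfrc window, in the stretch shown here with the motif in capitals, and in no window of the other searched genes. No Cp window held either motif, and the 1 shown, printed because Cp had the largest difference, has no capitals.
Tfrc, chr16:32608882-32608911, plus strand: ctcggtaggtgtACGTGcggaaggaagtga
Cp, chr3:19956804-19957053, plus strand: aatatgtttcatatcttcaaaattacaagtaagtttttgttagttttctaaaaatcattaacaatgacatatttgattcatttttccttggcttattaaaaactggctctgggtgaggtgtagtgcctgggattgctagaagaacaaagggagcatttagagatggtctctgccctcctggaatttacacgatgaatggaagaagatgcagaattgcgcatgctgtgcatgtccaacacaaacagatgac
A match is a description of the letters, not of binding, and its absence from the Cp windows says nothing of more distant sequence.

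Steap3 (ENSMUSG00000026389, chr1:120190757-120272705), the endosomal ferrireductase described in erythroid cells, was the lowest of the 10 genes. It was at 1.45, 1.62, 2.2 and 2.09 scaled FPKM in TRACK-VAD, 2.08, 1.91, 1.5 and 1.73 in TRACK, 2.96, 2.25 and 1.94 in WT-VAD and 3.02, 2.65 and 2.06 in WT. The transgenic libraries were on average lower, with overlap on the deficient diet and between the highest TRACK and the lowest WT library. The log2 difference averaged over the diets was -0.30 ± 0.10 (adjusted p = 0.0287), and limma called neither diet alone. The authors' deposited table listed Steap3 as lower in TRACK against WT, with a log2 fold change of -0.51 and an adjusted p of 0.0265. The average was not called in 5 of 14 cases in which 1 library was left out, nor without TRACK-VAD libraries 1 and 2 (adjusted p = 0.104). Without scaling it was -0.16 (adjusted p = 0.158), and with lane as a covariate -0.23 (adjusted p = 0.23), both not called. At this level the pseudocount of 1 FPKM makes the fold smaller than the ratio of the levels.

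Slc11a2 (ENSMUSG00000023030, chr15:100387898-100425072), the divalent metal transporter DMT1, was at 41.1, 32.3, 45.3 and 53.5 scaled FPKM in TRACK-VAD, 52, 54.1, 53.7 and 49.6 in TRACK, 55.7, 37.6 and 51.7 in WT-VAD and 52.9, 48.1 and 48.9 in WT. The groups overlapped in every comparison. In TRACK against WT the difference was 0.07 on the log2 scale, with a 95% interval from -0.26 to 0.39. Slc11a2 overlaps Gm5475 on the opposite strand, at 0.212 to 1.03 scaled FPKM.

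The members of storage and heme breakdown, Fth1 and Hmox1, showed no call. Fth1 (ENSMUSG00000024661, chr19:9982703-9985092), the ferritin heavy chain, which oxidises the iron that ferritin takes in, was the most abundant of the 10 genes. It was at 5840, 6720, 4700 and 5150 scaled FPKM in TRACK-VAD, 5560, 5300, 4800 and 5060 in TRACK, 5920, 5930 and 5320 in WT-VAD and 5280, 5110 and 5290 in WT. All 14 libraries lay within 0.51 on the log2 scale. The 95% interval of the difference was -0.28 to 0.24 in TRACK against WT and -0.30 to 0.22 in TRACK-VAD against WT-VAD. Fth1 transcript levels do not report translation, the step at which its IRE is known to act.

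Hmox1 (ENSMUSG00000005413, chr8:75093621-75100589), heme oxygenase 1, frees iron from heme. It was at 59.6, 66.4, 36.5 and 48.9 scaled FPKM in TRACK-VAD, 58.6, 51.4, 40.5 and 50.7 in TRACK, 39, 46.3 and 44.9 in WT-VAD and 38.8, 45.1 and 50.1 in WT. The groups overlapped, with the highest values in TRACK-VAD libraries 1 and 2. The log2 difference was 0.16 (95% interval -0.22 to 0.54) in TRACK against WT and 0.25 (-0.13 to 0.63) in TRACK-VAD against WT-VAD. Without scaling, the average over the diets was 0.40 with an adjusted p of 0.0405, against 0.21 and 0.215 with it.

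Of the export genes, ferroportin was not called and ceruloplasmin was. Slc40a1 (ENSMUSG00000025993, chr1:45908068-45926523), ferroportin, was at 42, 42.5, 24.3 and 28.4 scaled FPKM in TRACK-VAD, 37.4, 32.3, 32.9 and 36.1 in TRACK, 27.8, 22 and 33.8 in WT-VAD and 31, 32.2 and 40.3 in WT. The groups overlapped, and TRACK-VAD split into 2 high and 2 low libraries. In TRACK against WT the log2 difference was 0.01 (95% interval -0.39 to 0.42).

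Cp (ENSMUSG00000003617, chr3:19957054-20009145) was at 99.8, 206, 51.1 and 83.2 scaled FPKM in TRACK-VAD and at 71.6, 89.9, 75.5 and 62.7 in TRACK. WT-VAD libraries had 25.3, 18.6 and 20.4, and WT libraries had 20.5, 17.6 and 14.3. The lowest transgenic library was above the highest wild-type library, while the VAD and chow groups of each genotype overlapped. Its log2 difference was 2.04 ± 0.33 in TRACK against WT (4.12-fold, adjusted p = 0.00114). It was 2.14 ± 0.33 in TRACK-VAD against WT-VAD (4.4-fold, adjusted p = 0.00113). The diet differences were 0.28 ± 0.35 in WT-VAD against WT (adjusted p = 0.874) and 0.38 ± 0.30 in TRACK-VAD against TRACK (adjusted p = 0.665), and the interaction was 0.09 ± 0.46 (adjusted p = 0.965).

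The genotype difference of Cp was called whichever single library was left out, on either diet. Without TRACK-VAD libraries 1 and 2 it was 1.58 ± 0.21 in TRACK-VAD against WT-VAD (adjusted p = 0.000752). Within lane 6, the 1 TRACK-VAD library had 83.2 scaled FPKM and the 3 WT-VAD libraries had 18.6 to 25.3. With lane as a covariate the difference was 1.92 ± 0.51 and was no longer called (adjusted p = 0.0929). The authors' deposited tables gave log2 fold changes of 1.66 in TRACK against WT and 1.7 in TRACK-VAD against WT-VAD, with adjusted p-values of 9.1e-09 and 6.03e-09. Hps3, which shares 13201 bases with Cp on the opposite strand, was at 14.5 to 19.5 scaled FPKM in TRACK-VAD, 15.4 to 19.5 in TRACK, 15.1 to 19.3 in WT-VAD mice and 12.1 to 14.6 in WT.

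Some cell type markers differed between the genotypes, as Cp did. The summed scaled FPKM of 10 macrophage genes was 414 to 1060 in TRACK-VAD, 310 to 391 in TRACK, 147 to 225 in WT-VAD mice and 154 to 172 in WT, and 9 of the 9 tested were higher in both genotype comparisons. Cd74 alone made 291 to 786 of these sums in TRACK-VAD, 208 to 283 in TRACK, 100 to 158 in WT-VAD mice and 112 to 121 in WT. The library with the highest Cp, TRACK-VAD library 2, also had the highest macrophage sum and the highest tubular injury sum, 8350. TRACK-VAD library 1 came next in Cp, at 99.8 scaled FPKM, and had the lowest macrophage sum of its group, 414. Of 6 endothelial genes 5 were higher in both genotype comparisons, and of 6 tubular injury genes 3 were higher in TRACK against WT and 6 in TRACK-VAD against WT-VAD. The shares of all tested genes called higher were 8.53% and 11.1%. Markers of hepatocytes, the main source of plasma ceruloplasmin, summed to 98.5 to 342 in TRACK-VAD, 76.9 to 177 in TRACK, 193 to 226 in WT-VAD mice and 78.6 to 119 in WT. Of these 7 genes none was called in TRACK against WT and 2 were lower in TRACK-VAD against WT-VAD. None of the genes on the macrophage and hepatocyte lists was at 0 in every library. The part of these cell types and of injury in the Cp difference was not tested. The genes most like Cp in pattern over the 14 libraries were Cd52, Akr1b8 and H2-Ab1, with root mean square differences of 0.36, 0.37 and 0.39 on the log2 scale, where Cp ranged over 3.76.

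**Figure D3:**
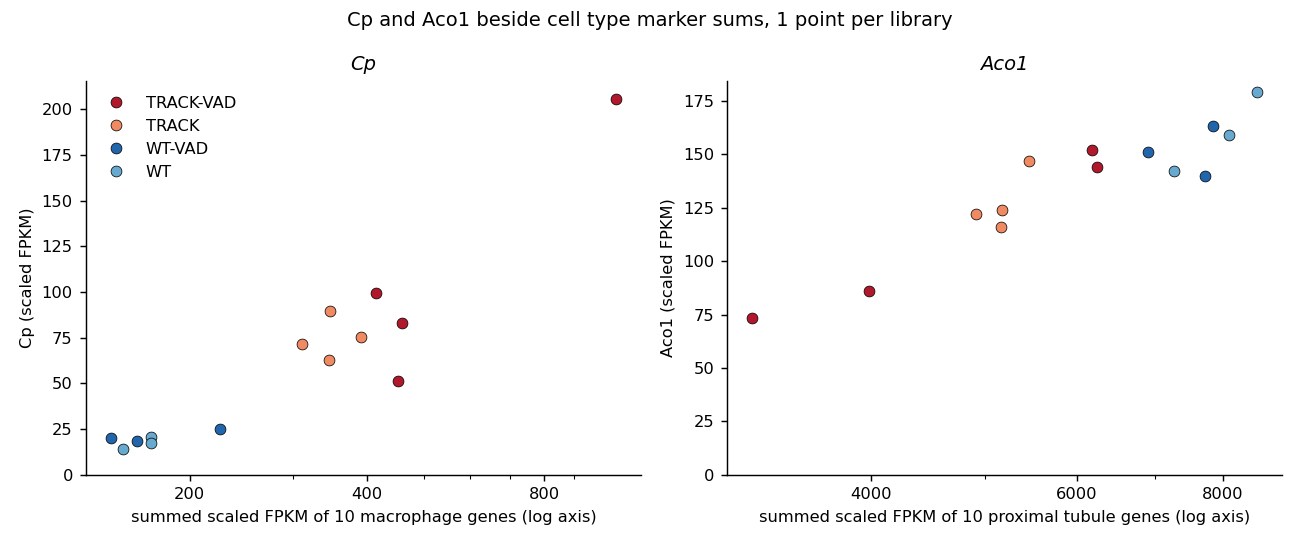
Left, scaled FPKM of Cp against the summed scaled FPKM of 10 macrophage genes; right, scaled FPKM of Aco1 against that of 10 proximal tubule genes. Horizontal axes are logarithmic and each point is 1 library, coloured by group. Cp and the macrophage sum are both highest in TRACK-VAD library 2 (206 and 1060), and Aco1 and the proximal tubule sum are both lowest there (73.5 and 3160). Cd74 alone makes 786 of the macrophage sum in that library.

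Of the 2 iron sensors, Ireb2 was lower in the transgenic groups and Aco1 was not called. Ireb2 (ENSMUSG00000032293, chr9:54863755-54912534), iron regulatory protein 2, is degraded when iron is plentiful. It was at 17.6, 15.9, 24.1 and 21.6 scaled FPKM in TRACK-VAD and at 21.9, 22.8, 22.1 and 24.8 in TRACK. WT-VAD libraries had 30.1, 25.3 and 32.7, and WT libraries had 28.4, 28.2 and 30.5. In scaled values every transgenic library was below every wild-type library. Before scaling, WT-VAD library 2, at 22.8 FPKM, lay below the TRACK libraries, at 22.9 to 25.4. The log2 difference of Ireb2 was -0.56 ± 0.13 in TRACK-VAD against WT-VAD (0.68-fold, adjusted p = 0.00898). It was -0.33 ± 0.13 in TRACK against WT (adjusted p = 0.0863).

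Averaged over the diets Ireb2 differed by -0.44 ± 0.09 (adjusted p = 0.00197), 1 of 4 members called in this average. The others were Trf and Cp, which were higher, and Steap3, which was lower; 35.9% of all tested genes were called in it, 17.6% higher and 18.3% lower. Ireb2 stayed called whichever single library was left out, in 7 of 7 cases in TRACK-VAD against WT-VAD and 14 of 14 in the average. For Ireb2 the authors' deposited tables gave -0.61 in TRACK-VAD against WT-VAD (adjusted p = 0.000179) and -0.31 in TRACK against WT (adjusted p = 0.0876). Without TRACK-VAD libraries 1 and 2 the Ireb2 difference was -0.34 in TRACK-VAD against WT-VAD (adjusted p = 0.0601) and -0.33 in the average (adjusted p = 0.0028). With lane as a covariate it was -0.42 in TRACK-VAD against WT-VAD (adjusted p = 0.362); within lane 6, TRACK-VAD library 4 had 21.6 scaled FPKM and the WT-VAD libraries had 25.3 to 32.7.

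Aco1 (ENSMUSG00000028405, chr4:40143081-40198338) encodes iron regulatory protein 1, which acts as a cytosolic aconitase when it holds an iron-sulfur cluster. It was at 86, 73.5, 152 and 144 scaled FPKM in TRACK-VAD, 116, 124, 122 and 147 in TRACK, 163, 140 and 151 in WT-VAD and 159, 142 and 179 in WT. TRACK-VAD libraries 1 and 2 were far below the rest, and libraries 3 and 4 lay within the WT-VAD range. The log2 difference was -0.33 ± 0.21 in TRACK against WT (adjusted p = 0.3), -0.47 ± 0.21 in TRACK-VAD against WT-VAD (adjusted p = 0.124) and -0.40 ± 0.15 in the average (adjusted p = 0.0514). Without TRACK-VAD libraries 1 and 2 it was -0.02 in TRACK-VAD against WT-VAD.

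Proximal tubule markers moved with Aco1 and Ireb2. Their sum was 3980 and 3160 in TRACK-VAD libraries 1 and 2 and 6180 and 6240 in libraries 3 and 4. Of the 10 markers, 4 were lower in TRACK against WT and 6 in TRACK-VAD against WT-VAD, with median log2 differences of -0.48 and -0.79. Over all tested genes 8.82% and 11.2% were lower, with medians of -0.001 and -0.008. Their part in the Aco1 and Ireb2 values was not tested. Among the genes most like Aco1 in pattern over the 14 libraries were Atp2a2 and Clcn3, each with a root mean square difference of 0.065 on the log2 scale, where Aco1 ranged over 1.27.

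**Figure D4:**
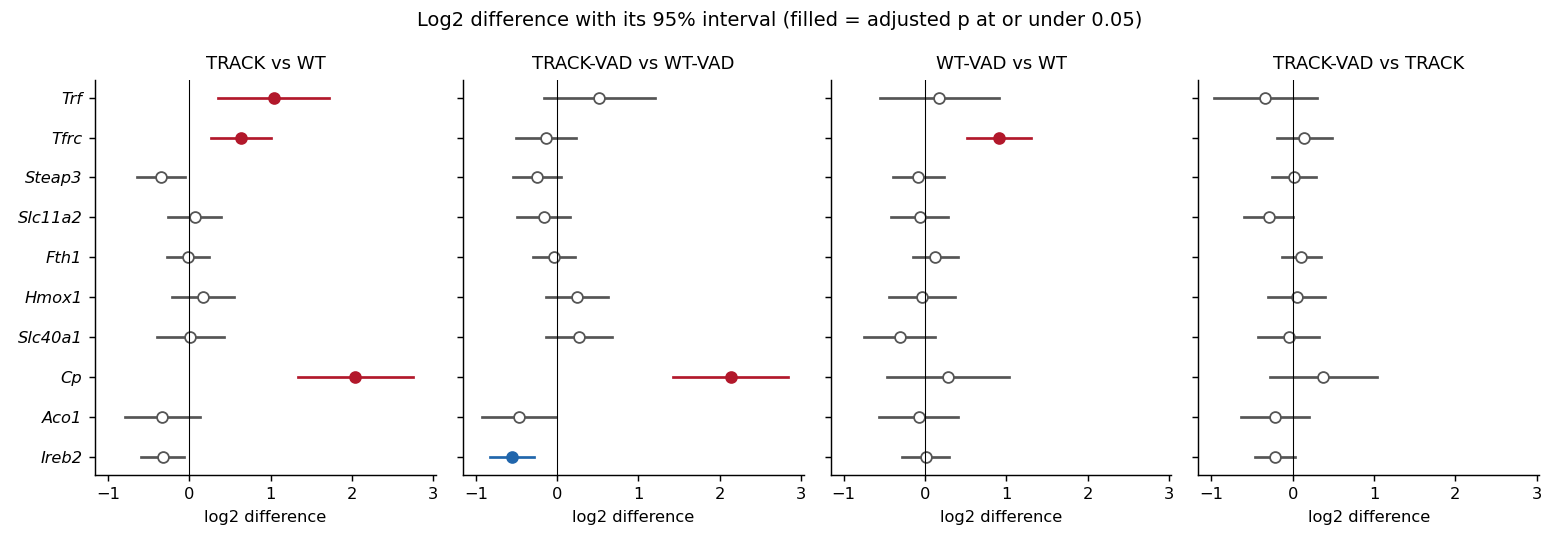
Log2 difference (horizontal axis, on log2(scaled FPKM + 1)) of the 10 iron genes in 4 comparisons, with 95% intervals; filled points are called at an adjusted p at or under 0.05, red for higher and blue for lower. Cp stands near 2 in both genotype panels, Tfrc is filled in TRACK vs WT and in WT-VAD vs WT, and no point is filled in TRACK-VAD vs TRACK.

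The deficient diet within the transgenic line gave no call among the 10 genes in TRACK-VAD against TRACK, where 0.155% of all tested genes were called by limma. At an unadjusted p under 0.05, 10.5% of all tested genes passed, and of the 10 genes none did. The lowest unadjusted p was that of Slc11a2, 0.052, with a log2 difference of -0.30 ± 0.14. In genotype by diet none of the 10 was called, against 0.00816% of all tested genes. Tfrc was the 1 of the 10 with an unadjusted p under 0.05, which 8.1% of all tested genes had. The authors' deposited table for TRACK-VAD against TRACK likewise listed no adjusted p at or under 0.05 for the 10 genes.

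Further genes of iron handling were taken from a list of 48 names, of which 44 were in the table and 36 were tested. In TRACK against WT 3 were higher and 4 were lower, close to the 17.3% called over all tested genes. Slc39a14, a zinc transporter that also takes up iron not bound to transferrin, was at 14.7 to 19.1 scaled FPKM in TRACK-VAD, 16.5 to 21.1 in TRACK, 9.31 to 10.2 in WT-VAD mice and 8.43 to 10.4 in WT. Its log2 difference was 0.93 ± 0.11 in TRACK against WT (adjusted p = 8.5e-05) and 0.73 ± 0.11 in TRACK-VAD against WT-VAD (adjusted p = 0.000792). On chow Steap4, a metalloreductase, and Lrp1, a receptor that takes up heme bound to hemopexin, were higher, by 0.91 and 0.71 on the log2 scale. Steap4 was low, at 1.28, 1.24, 1.26 and 2.69 scaled FPKM in TRACK and 0.349 to 0.371 in WT. Its highest library, TRACK library 4, was also the one with 61.4 scaled FPKM of Adipoq. Abcg2, an exporter of porphyrins, was lower, with a log2 difference of -0.86, as was the metalloreductase Steap2, with one of -0.46. Fech, which puts iron into heme, and Nfs1, which supplies sulfur for iron-sulfur clusters, were lower, with log2 differences of -0.42 and -0.27.

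In TRACK-VAD against WT-VAD 3 of the 36 were higher and 10 were lower, beside 11.1% higher and 11.2% lower over all tested genes, with a median log2 difference of -0.16 against -0.008 for all genes. Lcn2, a siderophore-binding protein also used as an injury marker, had 21.1, 83.9, 4.74 and 5.13 scaled FPKM in TRACK-VAD and 2.28, 2.15 and 1.99 in WT-VAD, so its difference of 2.35 ± 0.68 (adjusted p = 0.0275) was largest in the libraries that stand apart. Hfe, an upstream regulator of hepcidin, was higher by 0.47 on the log2 scale. On chow Hfe differed by 0.14 and was not called, and its lowest group mean was that of WT-VAD, 17.2, against 22.2 in WT. Hpx, the heme carrier hemopexin, had 0.162, 1.31, 1.89 and 4 scaled FPKM in TRACK-VAD and 5.65, 6.03 and 6.57 in WT-VAD, a difference of -1.50 ± 0.47 (adjusted p = 0.0359). On chow Hpx had 0.529 to 3.42 in TRACK and 0.599 to 3.25 in WT, a difference of -0.10. The hepatocyte markers Alb and Ahsg, which like Hpx are known as liver products, were also lower in TRACK-VAD against WT-VAD, by log2 differences of -2.01 and -1.82, and like Hpx had their 3 highest levels in the WT-VAD libraries. The list of 7 hepatocyte markers was mixed, with 2 called lower and 0 called higher. Mean scaled FPKM of Ttr and Fgb was higher in TRACK-VAD (151 and 9.36) than in WT-VAD (106 and 2.21). Means of Apoa1, Serpina1a and Tat were lower in TRACK-VAD. The part of liver transcripts in the Hpx value was not tested. Also lower were Abcg2, with a log2 difference of -0.82, Alas1, the first enzyme of heme synthesis, with -0.78, and Blvrb, a biliverdin reductase, with -0.62. Fech, Nfs1, and Iscu, the scaffold for iron-sulfur clusters, were lower, with log2 differences of -0.45, -0.37 and -0.38. For Alas1 and Blvrb the highest group means were those of WT-VAD, 176 and 39.7, against 101 and 31 in WT. On chow Alas1 and Blvrb differed by 0.02 and -0.12 and were not called. Neither diet comparison gave a call among the 36. Over all tested genes 0.514% were called in WT-VAD against WT and 0.155% in TRACK-VAD against TRACK.

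The ferritin light chain, Ftl1, partner of Fth1, was at 810, 795, 464 and 500 scaled FPKM in TRACK-VAD, 796, 511, 438 and 495 in TRACK, 926, 771 and 761 in WT-VAD and 852, 789 and 828 in WT. Its average over the diets was -0.49 ± 0.16 on the log2 scale (adjusted p = 0.0249), and neither diet alone gave a call. Ftl1 has 2 named pseudogenes in the annotation, and its ratio of FPKM to count, 12.2, was at the 99.8 percentile, so its level is uncertain. Of 7 transcripts on a list of known IRE holders, Tfrc was the 1 called in TRACK against WT and in WT-VAD against WT, where 17.3% and 0.514% of all tested genes were called. Limma called none in TRACK-VAD against WT-VAD, where 22.3% of all tested genes were called. In the average over the diets Ftl1 was the 1 called, where 35.9% of all tested genes were called.

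**Figure D5:**
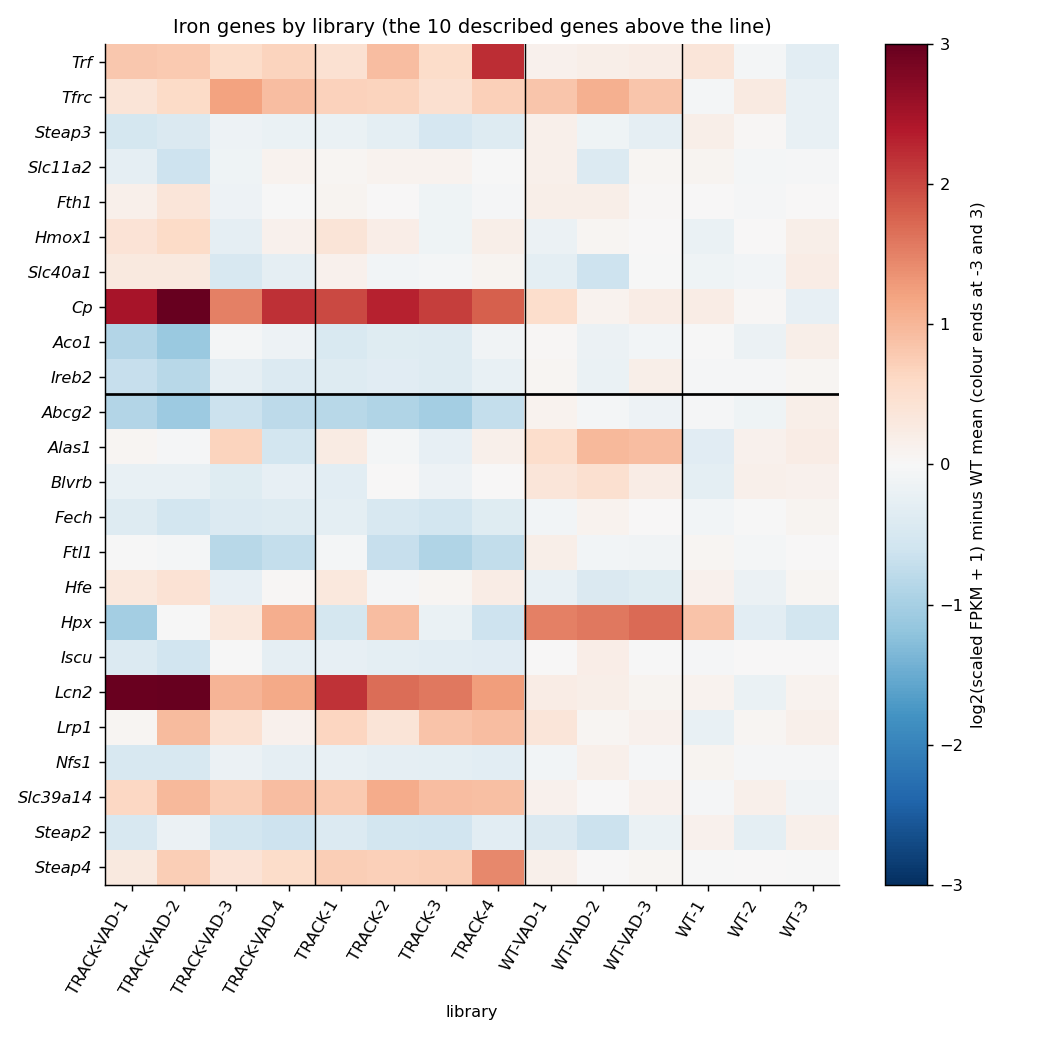
Log2(scaled FPKM + 1) minus the WT mean (colour, red higher and blue lower, ending at -3 and 3) of the 10 iron genes above the line and 14 further iron genes below it, by library. Cp is red in all 8 transgenic libraries, while Aco1 and Ireb2 are bluest in TRACK-VAD libraries 1 and 2.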

How the data were processed

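The authors deposited 1 table of expression values per gene, taken here as FPKM from its column layout and values; no header names the unit, and comparisons of level between genes rest on it. They also deposited 6 comparison tables whose columns, per the file headers, are a signal (the mean of normalized counts), log2 fold changes, their standard errors, a score (fold change over error) and p-values. The submitters' processing notes name DESeq 1.32 and mm9; no source used here gives the aligner or the FPKM program. The loci of the 10 genes in the table match GENCODE vM21 on GRCm38 exactly, except those of Fth1 and Ireb2, whose ends differ, so coordinates are given as in the table. No raw counts were used, the depth is unknown, and summed FPKM per library ran from 2012358 to 2551968. The 6 columns of other samples were not used.

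After each gene ID was reduced to 1 row, those reaching 1 FPKM in 3 or more libraries were tested, except 17 in which a library listed at 0 stood beside a library of its group at 5 FPKM or more while at least 7 libraries reached 5. FPKM were divided by trimmed-mean factors (30% of ratios and 5% of levels trimmed), 0.894 to 1.17. Log2(scaled FPKM + 1) was tested with limma 3.58.1 in R 4.3.3 (two-sided, mean-variance trend, all 14 libraries, 4 group means), adjusted by Benjamini-Hochberg over 12251 genes and called at 0.05. The procedure was tested on simulated data. Fold changes are on the log2(value + 1) scale and understate those of low genes. Errors are SE unless marked.

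The members and lists were chosen with earlier results of these data known. All 10 members are named, with up to 10 called genes per comparison of the wider list, those of the largest difference, and the 3 tested genes of most similar pattern for members ranging over at least 1 on the log2 scale. Libraries are numbered as biological replicates and the labels speak of separate mice. Same-numbered libraries did not steadily deviate together (correlations -0.143 to 0.382, the highest between library 1 of TRACK-VAD and of TRACK). No block was used in the main fit. Reads are without stated strand, so overlapping genes cannot be told apart. Alternatives changed the pseudocount, filter, scaling, libraries, lane, block and trend. Leaving out TRACK-VAD libraries 1 and 2 was chosen after seeing the data. Some genes of the wider list are not reported here. Plots used matplotlib 3.10.9.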

Additional observations from a re-analysis of the deposited data

Results flagged for a closer look

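In groups of 4 libraries, the gap between the extreme library and its neighbour, as a share of the range, was compared with Dixon's 95% critical value for the 10 genes and the further iron genes named. Of 48 groups 2 passed it, and chance flags about 1 in 20. Both were TRACK library 4. It had 131 scaled FPKM of Trf, against 38.1 to 53.7 in the other TRACK libraries. It had 2.69 scaled FPKM of Steap4, against 1.24 to 1.28.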

How the results depend on the processing

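Of 1174 values of the 10 genes under alternatives, 1050 kept direction and call, 33 lost a call, 16 gained one, and 75 changed sign with no call on either side; no called value changed sign. Counts of genes called moved as follows. TRACK against WT (2125): 3464 with only those groups in the fit. TRACK-VAD against WT-VAD (2732): 584 with only those groups, 221 with lane as a covariate and 1298 without TRACK-VAD libraries 1 and 2, with 0 of the 10 genes called with lane and 1 without those libraries. WT-VAD against WT (63): 40 without a filter, 113 with only those groups and 0 with lane. Tfrc, the 1 of the 10 called there, was lost (0 called) without a filter, with lane, with the replicate block and without the trend (adjusted p = 0.0502 to 0.569). TRACK-VAD against TRACK (19): 10 with a pseudocount of 0.1, 3 with only those groups, 55 with lane and 7 with the replicate block. The average over diets (4396): 1966 with lane, with 2 of the 10 genes called, against 4. Genotype by diet (1): 4 without scaling, 3 without TRACK-VAD libraries 1 and 2, and 0 with a pseudocount of 0.1, a minimum of 5 FPKM, lane or the replicate block. For the average and genotype by diet, all groups enter every fit.

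Leaving out 1 library at a time gave 1029 to 1919 genes in TRACK against WT, with 1 to 3 of the 10 genes, 1611 to 3466 in TRACK-VAD against WT-VAD, 5 to 48 in WT-VAD against WT, with 0 to 1 of the 10, 9 to 55 in TRACK-VAD against TRACK and 0 to 7 in genotype by diet. With only the groups compared, Ireb2 and Aco1 gained a call in TRACK against WT, where Trf lost its own (0.0765), and Trf gained one in TRACK-VAD against WT-VAD, where Ireb2 lost its call (adjusted p = 0.0777). With the replicate number as a block, Trf in TRACK against WT had an adjusted p of 0.0615, Ireb2 gained a call there (0.035) and Aco1 gained one in TRACK-VAD against WT-VAD (0.0357) and in the average (0.0109). The cause of these changes was not tested. Group sizes of 3 and 4 and the lane shared by the WT-VAD libraries limit the diet comparisons.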
